A study of Mus musculus with 6 samples.

Results

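The Hox genes were followed in RNA from the proximal colon of 3 Hnf4α mutant and 3 control mice. Members were all genes named Hoxa, Hoxb, Hoxc or Hoxd with a number that had a probe set of their own on the array, and a gene with several probe sets was read from that with the highest average signal across the 6 arrays. This gave 33 of the 18193 genes measured. They were 9 HoxA, 9 HoxB, 7 HoxC and 8 HoxD genes, on mouse chromosomes 6, 11, 15 and 2. Other Hox genes were not analysed here.

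Each array held total RNA from 1 mouse killed at 1 year of age. The mutants carried loxP sites in both alleles of Hnf4α and a Cre transgene under the Villin promoter, which is active in the epithelium of the intestine, so that the gene was deleted in epithelial cells while muscle, connective tissue, nerves, vessels and immune cells of the gut wall kept it. Controls were littermates labelled as wild type. By the labels the controls were female, as was mutant replicate 1, while the other mutants were male. Xist, the RNA of the inactive X chromosome, lay between 5.03 and 5.32 on the log2 scale in the mutants and between 9.94 and 10.96 in the controls, so the RNA of mutant replicate 1, the library labelled female, went against its label, and sex and genotype cannot be told apart in these arrays. Hnf4a had a log2 signal of 10.17, 10.09 and 10.15 in mutant replicates 1, 2 and 3, against 12.23, 12.01 and 11.97 in the controls, a log2 fold change (mutant minus control) of -1.94 (standard error, SE, 0.10, and adjusted p = 0.000788 in limma). Whether its probe set lies in the deleted part was not analysed here.

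Hox genes encode homeodomain transcription factors that set position along the body axis. They lie in clusters in which the order of the genes on the chromosome follows the order of their domains along the body, with low-numbered genes anterior and high-numbered genes posterior. In the gut wall they act in the mesenchyme that forms muscle and connective tissue and, for some posterior members, in the hindgut endoderm. Hox proteins bind DNA with cofactors of the Pbx and Meis families, and the Cdx genes of the gut epithelium are relatives that lie outside the clusters.

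In the control colon 20 of the 33 Hox genes gave a signal above background, and 67.6% of all 18193 genes did so. Background was set on each array at the 95th percentile of 43 probe sets of olfactory receptors, genes of the nose that stood in for genes not used in colon, and lay between 5.07 and 5.21 on the log2 scale. By cluster, the genes above background in all 3 controls were 6 of 9 in HoxA, 6 of 9 in HoxB, 4 of 7 in HoxC and 4 of 8 in HoxD. By paralog group, they were 4 of 10 in groups 1 to 4, 7 of 9 in groups 5 to 8 and 9 of 14 in groups 9 to 13. Every cluster had genes on both sides of the level, and in groups 5 to 13 those not above it in all controls were Hoxb7, Hoxc8, Hoxc10, Hoxa13, Hoxb13, Hoxd12 and Hoxd13. All 3 mutants were above background for 17 of the 20, the exceptions being Hoxa10, Hoxa11 and Hoxd10. A probe set below this level may still detect some RNA, and levels of different probe sets were not compared with each other.

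**Figure D1:**
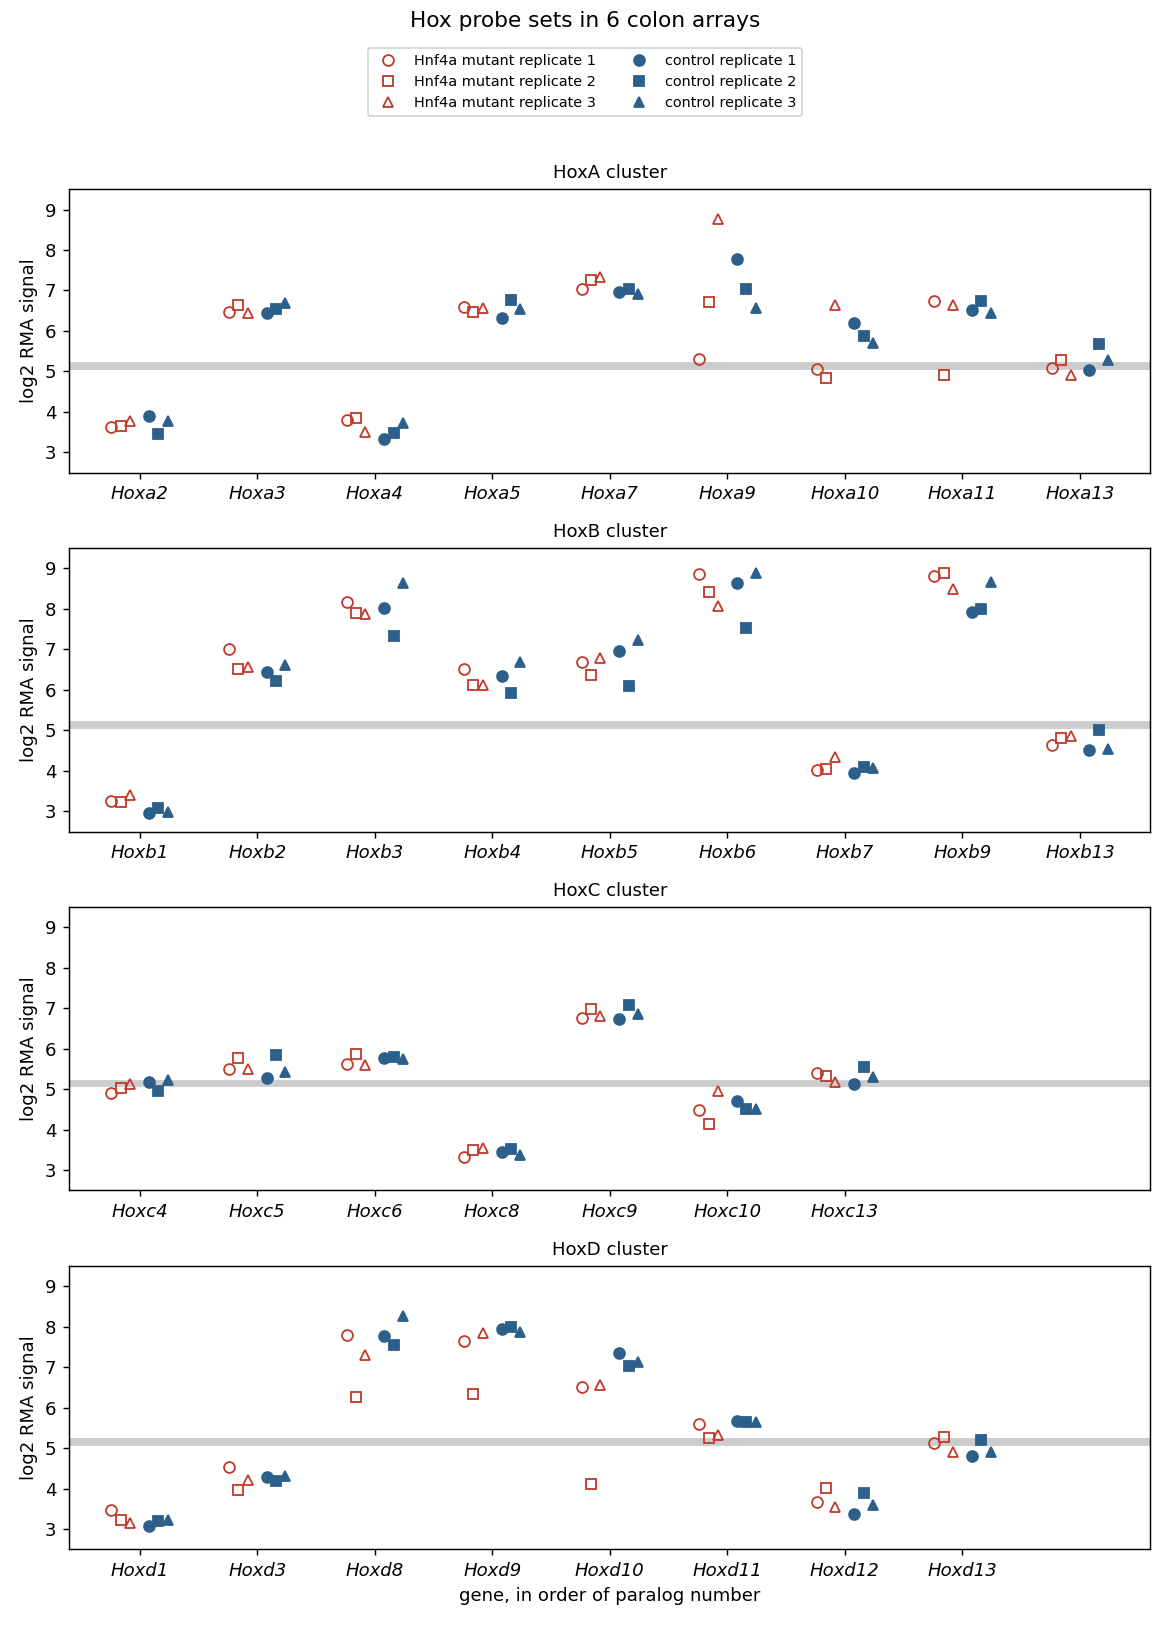
Log2 RMA signal (vertical axis) of the 33 Hox genes, in order of paralog number within each cluster, in 3 Hnf4a mutant arrays (open red symbols, left) and 3 control arrays (filled blue symbols, right), with symbol shape for the replicate. The grey band spans the background level of the 6 arrays, 5.07 to 5.21, and Hoxd10 of mutant replicate 2 lies below it at 4.10.

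Among anterior genes, Hoxa3, which patterns the pharyngeal organs, had 6.47, 6.63 and 6.44 in the mutants and 6.44, 6.55 and 6.69 in the controls, and the groups overlapped. Hoxb2, a gene of the hindbrain, had 7.01, 6.52 and 6.58 in the mutants and 6.43, 6.22 and 6.61 in the controls, a log2 fold change of 0.28 (SE 0.17, adjusted p = 0.50), which was 0.13 without mutant replicate 1. Hoxb3 and Hoxb4 were also above background in every array. Hoxa2, Hoxa4, Hoxb1, Hoxd1 and Hoxd3 were below background in every array, and Hoxc4 lay across the level. Hoxb1, needed for the identity of a hindbrain segment, was at 3.26, 3.23 and 3.40 in the mutants and 2.96, 3.08 and 2.98 in the controls. These 6 values were below background, within the 2.56 to 4.01 that Y-linked probe sets gave in the controls, so the difference of 0.29 is a difference in a dim signal.

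Middle genes made up the second set. Hoxa5, which acts in the lung and gut mesenchyme, was between 6.47 and 6.60 in the mutants and between 6.32 and 6.76 in the controls. Hoxa7, of the trunk, had 7.04, 7.27 and 7.33 in the mutants and 6.96, 7.05 and 6.92 in the controls, a log2 fold change of 0.23 (SE 0.11, adjusted p = 0.425). Hoxb5, which acts in the enteric nervous system and lung, had 6.69, 6.37 and 6.78 in the mutants and 6.95, 6.10 and 7.22 in the controls, with a log2 fold change of -0.14. The controls spread more widely than the mutants for Hoxb5, as they did for Hoxb6, a gene of the lateral mesoderm, with 8.86, 8.41 and 8.08 in the mutants and 8.65, 7.52 and 8.89 in the controls (log2 fold change 0.09). Hoxc5 and Hoxc6 were above background in all 6 arrays, while Hoxb7 and Hoxc8 were below it in all 6.

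The posterior genes differed in how closely the replicates agreed. Hoxc9, of the thoracic region, was between 6.76 and 6.98 in the mutants and between 6.73 and 7.07 in the controls. Hoxc10 was below background in all 6 arrays. The genes of paralog groups 12 and 13, which end the clusters and pattern the hindgut, genital tract and limb tips, gave weak signals. Hoxa13 had 5.09, 5.28 and 4.92 in the mutants and 5.04, 5.68 and 5.28 in the controls, above background in 1 mutant and 2 controls (log2 fold change -0.24, and -0.07 without control replicate 2). Hoxd13, its counterpart in HoxD, had 5.13, 5.28 and 4.91 in the mutants and 4.79, 5.20 and 4.89 in the controls (0.15, and between 0.06 and 0.27 with 1 array left out). These values of Hoxa13 and Hoxd13 lay around the background level, and the groups overlapped for both genes. Hoxb13, known from the prostate and distal gut, had 4.65, 4.81 and 4.86 in the mutants and 4.51, 5.01 and 4.55 in the controls (0.09). Hoxc13, a hair and nail gene, had 5.40, 5.33 and 5.18 in the mutants and 5.12, 5.55 and 5.30 in the controls (-0.02), and in control replicate 1 it stood only just above that array's background of 5.07. Hoxd12 was below background throughout, at 3.67, 4.02 and 3.54 in the mutants and 3.38, 3.89 and 3.59 in the controls (0.12). Among the measured HoxD genes, those above background in all 3 controls were Hoxd8, Hoxd9, Hoxd10 and Hoxd11.

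No Hox gene passed an adjusted p of 0.05 between mutants and controls. Over all genes 0.879% passed that test from limma, 0.484% higher and 0.396% lower, and the smallest adjusted p among the 33 Hox genes was 0.288, for Hoxb1. An unadjusted p of 0.05 or less was reached by 2 Hox genes, Hoxb1 and Hoxb9, both higher in the mutants, and in either direction by 16.2% of all genes. By SAM, the test named in the methods, 1 Hox gene, Hoxb1, had an unadjusted p of 0.05 or less (15.5% of all genes). After adjustment none passed, but no gene could, because the 20 label permutations pooled for it included the true grouping and its mirror. The unadjusted limma count rested on single arrays, being 5 without mutant replicate 1, 4 without mutant replicate 3, 0 without control replicate 1 and 1 without control replicate 3. Among the 33 genes 14 were higher in the mutants by their log2 fold change and 19 were lower, the median being -0.02 for the Hox genes and 0.05 for all genes. For 26 of the 33 genes the 95% interval of the log2 fold change lay within 1 of zero on the log2 scale, and for 14 it lay within 0.5. Among the 20 genes above background in all arrays of a group these counts were 13 and 7. The intervals that reached past 1 were those of Hoxa9, Hoxa10, Hoxa11, Hoxb9, Hoxd8, Hoxd9 and Hoxd10, so differences of more than a doubling lay inside the intervals of these genes.

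**Figure D2:**
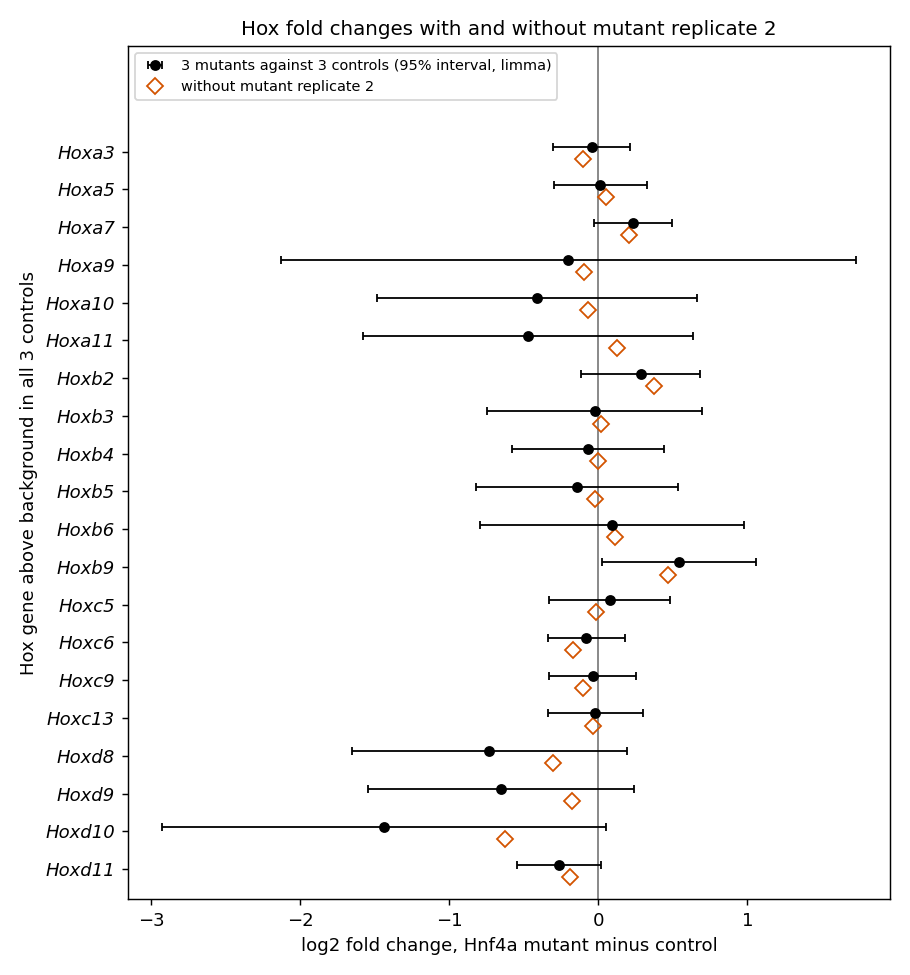
Log2 fold change, mutant minus control (horizontal axis), of the 20 Hox genes above background in all 3 controls, with the 95% interval from limma (black) and the value without mutant replicate 2 (orange diamonds). The HoxD values move toward 0 without that array, where Hoxd10 is at -0.63 and with it at -1.44, and most other genes lie near 0.

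Hoxb9, a gene of the thoracic ribs and mammary gland, was the one of this pair above background. It had 8.81, 8.88 and 8.50 in the mutants and 7.91, 7.99 and 8.66 in the controls. Control replicate 3 lay above mutant replicate 3, so the groups overlapped. The means were 8.73 ± 0.20 in mutants and 8.19 ± 0.41 in controls (SD, n = 3 each), and the log2 fold change was 0.54 (SE 0.22, adjusted p = 0.368 from limma). It was between 0.40 and 0.78 with any 1 array left out, and no adjusted p was below 0.178.

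The widest differences in the mean were in neighbouring HoxD genes, where mutants were low. The genes Hoxd8, Hoxd9 and Hoxd10 are read from the same strand of chromosome 2, and the 250 bases before a RefSeq start of each (build GRCm38.p6, sequences from RefSeq) are shown because these 3 genes were low together in 1 mutant. They lie at chr2:74704365-74704614, chr2:74697513-74697762 and chr2:74691641-74691890 on the plus strand, and capitals mark AGGTCA or its reverse complement, a short element that many nuclear receptors bind.
Hoxd8: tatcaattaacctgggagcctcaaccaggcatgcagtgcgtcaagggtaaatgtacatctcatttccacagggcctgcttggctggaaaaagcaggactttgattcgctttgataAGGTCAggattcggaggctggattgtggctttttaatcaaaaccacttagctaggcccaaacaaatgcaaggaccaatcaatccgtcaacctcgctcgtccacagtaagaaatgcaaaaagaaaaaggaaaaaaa
Hoxd9: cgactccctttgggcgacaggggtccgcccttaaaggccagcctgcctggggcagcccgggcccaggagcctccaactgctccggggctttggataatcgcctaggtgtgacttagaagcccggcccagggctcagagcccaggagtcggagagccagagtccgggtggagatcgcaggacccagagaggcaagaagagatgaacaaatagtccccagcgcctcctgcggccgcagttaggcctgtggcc
Hoxd10: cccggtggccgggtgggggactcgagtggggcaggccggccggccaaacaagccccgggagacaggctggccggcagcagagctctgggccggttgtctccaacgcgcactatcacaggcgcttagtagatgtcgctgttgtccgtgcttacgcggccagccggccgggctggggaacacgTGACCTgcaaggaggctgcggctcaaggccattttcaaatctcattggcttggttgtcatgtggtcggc
Windows of 250 bases were searched on both strands for 19 Hox genes with an entry. CAAAGTCCA, a motif of the HNF4 type, was found in none of the 19 and in 0.384% of 32851 windows of all genes. AGGTCA was found for Hoxb4, Hoxc4, Hoxd3, Hoxd8 and Hoxd10, and in 14.0% of all windows. TTTATG, a core bound by Cdx and posterior Hox proteins, was found for Hoxa7, Hoxd3 and Hoxd11 (10.8% of all windows), TGACAG, bound by Meis, for Hoxa2 and Hoxa3 (15.9%), and TGATNNAT, bound by Pbx with Hox, for Hoxa2, Hoxb1 and Hoxd11 (7.68%). A match says only that these letters stand in the window.

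Hoxd10, which acts in the limb and the lumbar spinal cord, had 6.51, 4.10 and 6.56 in mutant replicates 1, 2 and 3, against 7.34, 7.02 and 7.12 in the controls. All 3 mutants lay below all 3 controls, and mutant replicate 2, whose background was 5.20, gave no signal above it, so the size of differences that include it is uncertain. The log2 fold change was -1.44 (SE 0.63, adjusted p = 0.398 from limma), and without mutant replicate 2 it was -0.63 (SE 0.13, adjusted p = 0.194). Hoxd9, its neighbour, had 7.65, 6.32 and 7.85 in the mutants and 7.93, 7.99 and 7.87 in the controls. The groups did not overlap, but mutant replicate 3 was only just below the lowest control, and the log2 fold change of -0.65 (SE 0.38, adjusted p = 0.492) was -0.18 without mutant replicate 2.

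Hoxd8 had 7.80, 6.27 and 7.29 in the mutants and 7.76, 7.54 and 8.26 in the controls. Mutant replicate 1 lay within the range of the controls, and the log2 fold change of -0.73 (SE 0.39, adjusted p = 0.466) was -0.30 without mutant replicate 2. A second probe set of Hoxd8 had 6.65, 5.59 and 6.32 in the mutants and 6.81, 6.60 and 7.03 in the controls, again lowest in mutant replicate 2. Hoxd11, a limb and kidney gene, had 5.61, 5.24 and 5.32 in the mutants and 5.66, 5.64 and 5.65 in the controls, with no overlap and a log2 fold change of -0.26 (SE 0.12, adjusted p = 0.406). Its signal in mutant replicate 2 stood only just above that array's background of 5.20. Over Hoxd8 to Hoxd11 the median log2 fold change was -0.69, and -0.25 without mutant replicate 2. Groups without overlap were seen for 3 Hox genes lower in the mutants, Hoxd9, Hoxd10 and Hoxd11, and for 1 higher, Hoxb1, and over all genes the shares were 8.86% and 14.5% (23.3% in either direction).

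In HoxA the posterior genes varied most among the mutants. Hoxa11, of the uterus, kidney and limb, had 6.73, 4.90 and 6.65 in the mutants and 6.51, 6.74 and 6.44 in the controls. Mutant replicate 2 stood alone, and the log2 fold change of -0.47 (SE 0.47, adjusted p = 0.687) was 0.13 without it. Hoxa10, a uterine and blood cell gene, had 5.07, 4.83 and 6.63 in the mutants and 6.19, 5.87 and 5.70 in the controls, with mutant replicate 3 above every control and the other mutants below (log2 fold change -0.41, adjusted p = 0.720, -0.07 without mutant replicate 2 and -0.97 without mutant replicate 3). Mutant replicates 1 and 2 were below background for Hoxa10, as mutant replicate 2 was for Hoxa11. Hoxa9, known for its role in blood stem cells, spanned 5.31, 6.72 and 8.76 in the mutants, against 7.78, 7.04 and 6.56 in the controls, a log2 fold change of -0.20 (SE 0.81, adjusted p = 0.931). The spread of 3.45 between mutant replicates was not seen in a second probe set of Hoxa9, which had 6.53, 6.55 and 7.10 in the mutants and 6.81, 6.82 and 6.51 in the controls, a log2 fold change of 0.01. Over the 15 further probe sets of Hox genes the log2 fold changes lay between -0.63 and 0.18, and none had an unadjusted p of 0.05 or less.

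**Figure D3:**
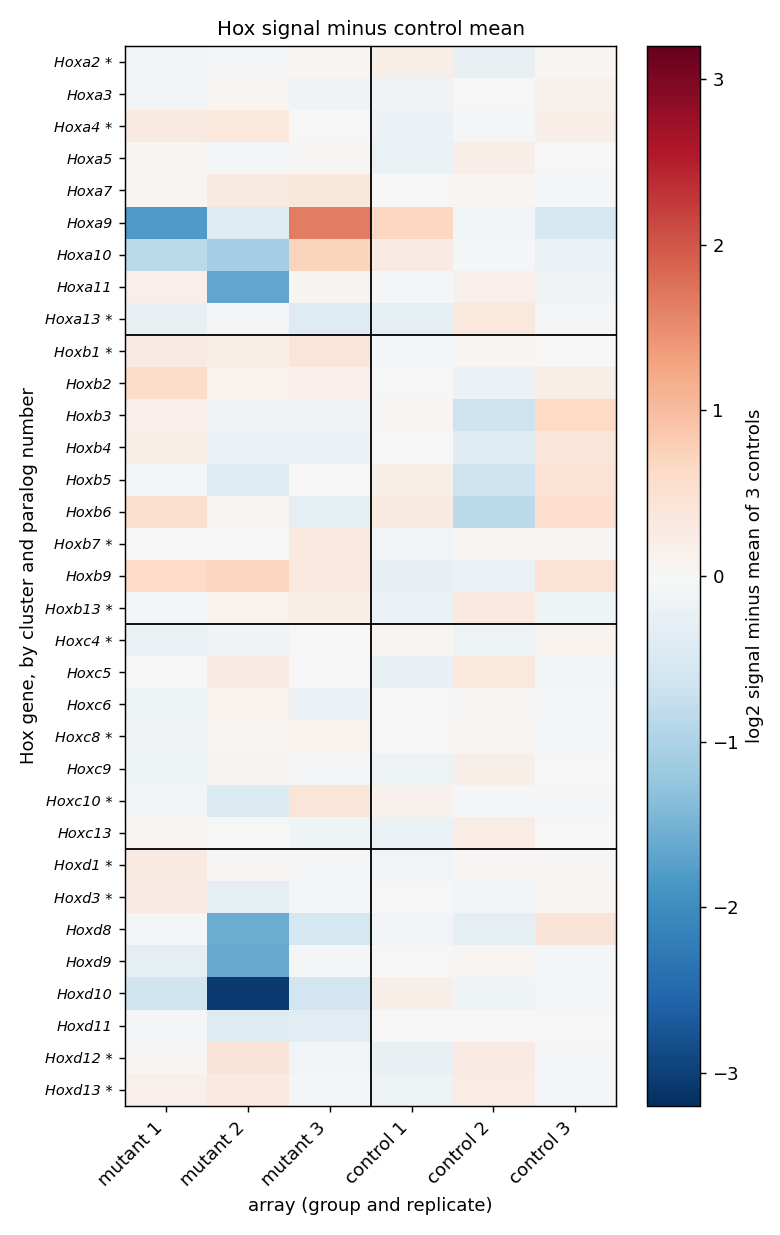
Difference in log2 signal from the 3-control mean (colour, blue lower and red higher) for the 33 Hox genes (rows, by cluster and paralog number; asterisks mark genes not above background in all arrays of either group) in 3 mutant and 3 control arrays (columns). Mutant replicate 2 is low for Hoxd8, Hoxd9 and Hoxd10, and the -3.06 of Hoxd10 is taken from a signal below that array's background.

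Mutant replicate 2 was more than 0.5 below the mean of the other mutants for 6 Hox genes, against 6.72% of all genes. They were Hoxd8 (-1.28) and Hoxd9 (-1.43), measured above background in every array, and Hoxd10 (-2.43), Hoxa11 (-1.79), Hoxa10 (-1.02) and Hoxc10 (-0.59), which were below the background of 5.20 in mutant replicate 2, so that the sizes and order of these last differences are uncertain. All 6 belong to paralog groups 8 to 11, where Hoxa9, Hoxb9, Hoxc8, Hoxc9 and Hoxd11 were not lower by that much. No HoxB gene was among the 6, but Hoxb9 was the only HoxB gene measured in these groups. Mutant replicate 2 was also low in RNA of muscle and connective tissue. All 15 smooth muscle markers had negative log2 fold changes, and relative to the mean of the controls their median was -0.30, -3.78 and -0.48 in mutant replicates 1, 2 and 3. The log2 of their summed signal was 15.27, 11.79 and 15.11 in the mutants and between 15.46 and 15.57 in the controls. Markers of fibroblasts and matrix, 16 of 16 negative, had medians of -0.28, -3.10 and -0.41 in the mutants. Endothelial markers, 10 of 10 negative, had -0.20, -1.39 and -0.31, enteric neuron markers, 10 of 11 negative, -0.19, -0.87 and -0.41, and leukocyte markers, 9 of 11 negative, -0.79, -1.05 and -0.23. Enteric glia markers, 4 of 5 negative, had 0.10, -0.24 and -0.14. The 12 markers of gut epithelium, 4 of them negative, had medians of 0.05, 0.19 and 0.19 in the mutants. None of the 12 was called. Before adjustment 5 were higher at p of 0.05 or less, among them the keratin Krt18 (log2 fold change 0.75, adjusted p = 0.112), and 1 was lower, Krt20 (-0.49, adjusted p = 0.313). The part of these shifts in the Hox values was not tested, and in RNA of whole tissue fewer cells of a type and less RNA per cell cannot be told apart. Without mutant replicate 2 no Hox gene passed an adjusted p of 0.05 (0.528% of all genes), and 2 had an unadjusted p of 0.05 or less, against 11.9% of all genes.

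**Figure D4:**
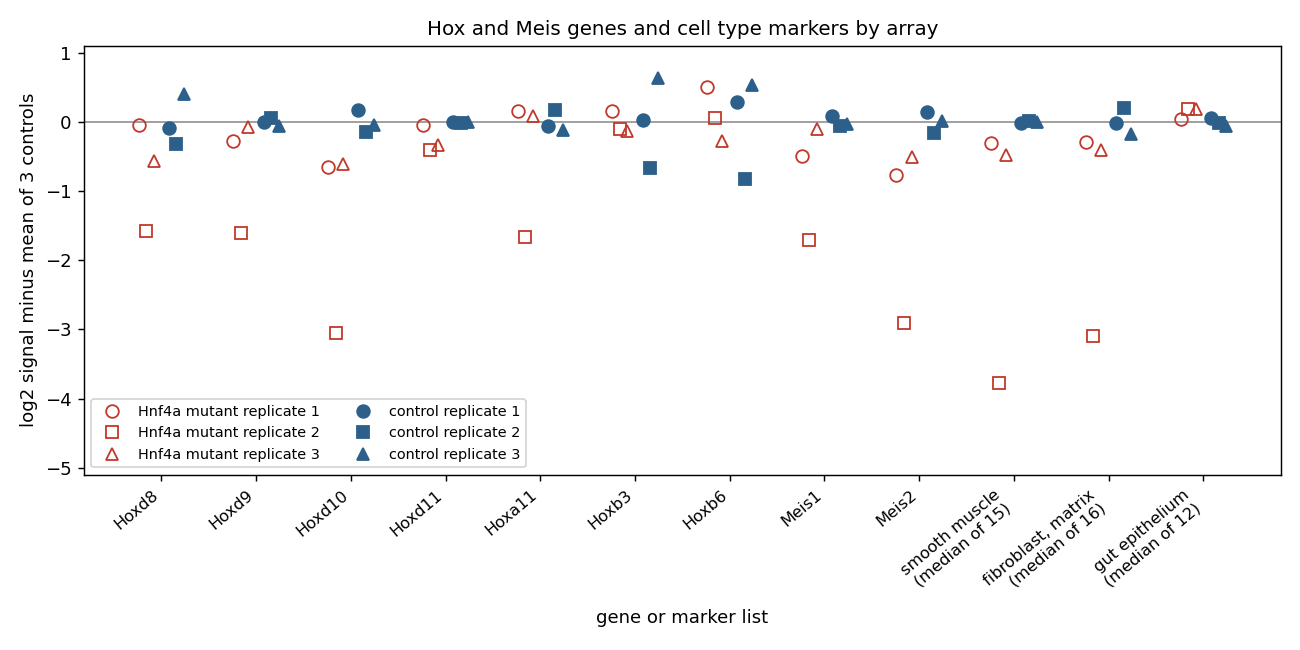
Difference in log2 signal from the 3-control mean (vertical axis) for 7 Hox genes, Meis1 and Meis2, and the medians of 3 cell type marker lists, in 3 mutant arrays (open red symbols) and 3 control arrays (filled blue symbols). Mutant replicate 2 (open squares) is low for Hoxd8, Hoxd9, Hoxd10, Hoxa11, Meis1, Meis2, smooth muscle (-3.78) and matrix (-3.10). It is not low for Hoxb3, Hoxb6 or epithelium (0.19), nor for Meis3, which is not plotted. Pbx3, also not plotted, is lowest in this array. Its signals of Hoxd10, Hoxa11 and Meis2 were below background.

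Control arrays differed in other genes. With 1 probe set read per gene, control replicate 2 was more than 0.5 below the mean of the other controls for 4 Hox genes. All were neighbours in HoxB, and 5.42% of all genes were that low. They were Hoxb6 (-1.25), Hoxb3 (-0.99), Hoxb5 (-0.99) and Hoxb4 (-0.60). Hoxb3 had 8.16, 7.90 and 7.88 in the mutants and 8.03, 7.34 and 8.63 in the controls, and Hoxb4, known from blood stem cells, had 6.52, 6.11 and 6.12 in the mutants and 6.34, 5.92 and 6.69 in the controls. A second probe set of Hoxb3 gave 8.16, 7.73 and 7.98 in the mutants and 8.04, 6.92 and 8.56 in the controls, with control replicate 2 lowest again. The mutants lay within the range of the controls for both Hoxb3 probe sets. Outside HoxB, control replicate 2 was also the lowest control in a further probe set of Hoxa3 (6.24, 5.36 and 6.23 in the controls). The same held for a second probe set of Hoxa5 (6.48, 5.92 and 6.70). It was not the lowest control in the probe sets by which Hoxa3 and Hoxa5 were read above. In control replicate 2 the marker medians were 0.01 for smooth muscle, 0.21 for fibroblasts and matrix, 0.22 for leukocytes, 0.18 for enteric glia, -0.14 for enteric neurons, -0.02 for endothelium and -0.01 for epithelium, relative to the mean of the controls. Their part in these Hox values was not tested.

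Cofactors of Hox proteins were examined next. Of 9 Pbx, Meis and Pknox genes 8 were measured, and none passed the test, adjusted or unadjusted, with 4 log2 fold changes positive and 4 negative and a median of 0.02. Meis2, a homeodomain partner of Hox proteins, had 6.40, 4.25 and 6.65 in the mutants and 7.30, 6.997 and 7.18 in the controls, a log2 fold change of -1.40 (SE 0.59, adjusted p = 0.386), and -0.64 without mutant replicate 2. The signal of that array was below its background of 5.20, so the size of the first value is uncertain. Meis1 had 6.45, 5.24 and 6.84 in the mutants and 7.02, 6.88 and 6.92 in the controls, a log2 fold change of -0.76 (SE 0.38, adjusted p = 0.442), and -0.30 without that array. For both, all 3 mutants lay below all 3 controls and mutant replicate 2 was lowest, as for Hoxd10. Over all genes 8.86% had mutants lower without overlap. Pbx3 had 7.84, 6.80 and 7.37 in the mutants and 7.88, 7.48 and 7.84 in the controls. The groups overlapped for Pbx3, and mutant replicate 2 was lowest. The log2 fold change was -0.40 (SE 0.26, adjusted p = 0.540), and -0.13 without mutant replicate 2. Meis3 had 6.35, 7.02 and 6.49 in the mutants and 6.65, 6.32 and 6.43 in the controls (log2 fold change 0.16). Its groups overlapped and mutant replicate 2 was highest.

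Gut homeobox genes outside the clusters showed no call either. Of 16 listed 14 were measured, and 13 had positive log2 fold changes, as had 10984 of all 18193 genes. The median was 0.16. Cdx4, Gsx1, Gsx2, Nkx3-2 and Isl1 were not above background in all controls. Cdx2, which sets intestinal identity in the epithelium, was between 11.27 and 11.53 in the mutants and between 11.30 and 11.33 in the controls (log2 fold change 0.13, adjusted p = 0.626), and Cdx1 had 0.24 (adjusted p = 0.470). Nkx2-3, a gene of the gut mesenchyme, had 7.33, 6.97 and 7.45 in the mutants and 7.88, 7.78 and 7.58 in the controls. Its log2 fold change was -0.50 (SE 0.15, adjusted p = 0.265 in limma), and -0.36 without mutant replicate 2. Six2, known from the pyloric mesenchyme, had 6.46, 6.44 and 6.62 in the mutants and 6.17, 6.34 and 6.11 in the controls, a log2 fold change of 0.30 (SE 0.11, adjusted p = 0.318). Mutants and controls did not overlap for Nkx2-3 or Six2, the 2 of 14 genes with an unadjusted p of 0.05 or less. The groups of Gsx1, which was not above background in all controls, did not overlap either, with mutants higher. Over all genes 16.2% reached that p and 23.3% had groups without overlap.

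Marker genes of gut position gave 1 call. Car4, a membrane carbonic anhydrase of the colon surface, fell to 8.83, 9.09 and 9.19 in the mutants, against 11.45, 11.49 and 12.29 in the controls, a log2 fold change of -2.71 (SE 0.24, adjusted p = 0.00977). It was the only one called of 8 measured colon markers, whose median log2 fold change was -0.04, and it was not called without mutant replicate 3 or without control replicate 1. Aqp4, a water channel, had the next smallest p in that list, with 10.61, 10.37 and 10.23 in the mutants and 6.67, 5.79 and 8.41 in the controls (log2 fold change 3.45, SE 0.60, adjusted p = 0.0774). The median does not show the spread within groups. Aqp8 had 9.09, 11.56 and 11.73 in the mutants and 11.80, 12.29 and 8.32 in the controls (log2 fold change -0.01, SE 1.15). Of 10 stomach markers none was called, 9 were positive and the median was 0.16. Tff2, a trefoil peptide of the gastric mucus, had 6.27, 6.96 and 6.64 in the mutants and 5.33, 5.66 and 5.28 in the controls (1.20, SE 0.19, adjusted p = 0.0630), and Tff1 had 0.28 (adjusted p = 0.417). Of 8 measured small intestine markers none was called and the median was -0.02, with 4 positive and 4 negative. Fabp2, the intestinal fatty acid binding protein, had 9.74, 11.31 and 10.65 in the mutants and 13.60, 12.94 and 12.58 in the controls (-2.47, SE 0.42, adjusted p = 0.0729), and Apoa4, an apolipoprotein, had -0.56 (adjusted p = 0.272). The controls differed among themselves in this list too. Control replicate 2 was the lowest control for Slc10a2 (9.22, 7.37 and 9.31) and the highest for Rbp2 (8.08, 9.47 and 7.32).

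Chromatin regulators that keep Hox genes silent or active were listed too. Of 17 measured polycomb genes none was called, 6 were positive and 11 negative, and the median was -0.07. Phc1 had a log2 fold change of 0.38 (adjusted p = 0.342) and Ezh1, a histone methyltransferase, -0.32 (adjusted p = 0.364). Of 10 measured trithorax and demethylase genes, Kdm6a, an X-linked demethylase of histone H3 that escapes X inactivation, fell to 8.06, 8.04 and 7.70 in the mutants, against 8.90, 8.73 and 8.80 in the controls, a log2 fold change of -0.88 (SE 0.13, adjusted p = 0.0462). It was not called with any 1 array left out, for example with an adjusted p of 0.0928 without mutant replicate 2, and sex and genotype cannot be told apart for it. Psip1, a chromatin reader, followed at -0.30 (adjusted p = 0.300). SAM after adjustment called no gene of the 7 lists, but its permutations allowed no call, so this is no check on them.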

How the data were processed

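The authors deposited 1 table of log2 values made by RMA, which corrects background, quantile-normalizes the arrays and summarises each probe set, and the version of RMA is not given in the sources used here. Values of 6 Affymetrix mouse genome arrays, 1 per mouse, entered without further scaling (array medians 5.43 to 5.53). Excluding 64 controls, 45037 probe sets were fitted with limma 3.58.1 in R 4.3.3, mutant minus control, with Benjamini-Hochberg adjustment over all of them and an adjusted p under 0.05 as threshold. Probe sets were named by GEO's platform annotation, 34945 with 1 symbol, 932 with several and 9160 with none. The number of arrays limits the precision. With 3 arrays a group, the smallest two-sided p of an exact permutation test is 0.1. The script was tested on simulated data.

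Members and lists were chosen with earlier results of these data known. Hox genes were named with values by a rule: those called, the 12 above background with the largest change, paralog groups 12 and 13, and those with no overlap at an unadjusted p of 0.05 or less. Of other lists, called genes and the pair with the smallest p were named. Hoxa3, Hoxa5, Hoxb3, Hoxb4, Hoxc9, Hoxc10, Meis3, Pbx3, Gsx1, Cdx1, Cdx2, Aqp8, Slc10a2, Rbp2 and other probe sets were added after their values were seen. Alternatives were limma with an intensity trend, array weights or a replicate block, SAM with the 20 label permutations, a filter on dim probe sets, 2 other scalings, other probe sets for a gene, and leaving out each array.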

Additional observations from a re-analysis of the deposited data

How the results depend on the processing

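No alternative called any Hox gene at an adjusted p under 0.05, though SAM could call no gene at all. The count of Hox genes at an unadjusted p of 0.05 or less, 2, became 1 with dim probe sets left out and 1 by SAM, and ran from 0 to 5 with 1 array left out. The median log2 fold change of the Hox genes, -0.02, became 0.0076 with arrays centred on their medians. Of the named Hox genes, the log2 fold change turned in sign with array weights for Hoxa9 (0.27), Hoxb6 (-0.24) and Hoxc13 (0.0057), and with centred medians for Hoxc13 (0.013). With 1 array left out it ran across 0 for Hoxa9 (-1.11 to 0.61), Hoxa11 (-0.79 to 0.13), Hoxb5 (-0.47 to 0.090), Hoxb6 (-0.32 to 0.36), Hoxb13 (-0.0032 to 0.25), Hoxc13 (-0.12 to 0.10) and Hoxd12 (-0.016 to 0.26), and the cause was not tested. None of these genes had been called. Hox genes above background in the controls numbered 26 over the highest Y-linked value and 18 over the 99th percentile of olfactory receptors, against 20. Mutant replicate 2 minus the mean of the other mutants had a median of -0.08 over the 33 Hox genes and of -0.17 over the 20 above background, an alternative chosen after seeing the data.

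In other lists, 1 stomach and 1 small intestine marker were called with array weights, and 1 of each with the median over the probe sets of a gene, against 0. Colon markers, 1 called, became 2 with that median and 0 to 2 with 1 array left out. Trithorax and demethylase genes, 1 called, became 0 with an intensity trend, centred medians, the median over probe sets and each array left out. By SAM both counts were 0, the only count possible after its adjustment.

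Same-numbered mutants and controls deviated from their group means with correlations of -0.07, 0.24 and -0.21. These values differed in sign, and they cannot show whether same-numbered mice belonged together. With the replicate number as a block, Hox genes called stayed at 0, 3 reached an unadjusted p of 0.05 or less, the median was -0.02, and trithorax genes called were 0.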

Other observations

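Transcripts beside the Hox genes, which no comparison above used, gave these values. Hoxd3os1, an antisense transcript of HoxD, had 6.67, 5.97 and 6.63 in the mutants and 7.69, 6.03 and 7.95 in the controls (log2 fold change -0.80, standard error (SE) 0.50, adjusted p = 0.52 in limma). Hoxb5os, antisense in HoxB, had 7.76, 7.32 and 7.12 in the mutants and 6.85, 6.97 and 7.36 in the controls (0.34, SE 0.20, adjusted p = 0.51). A probe set shared by Hoxb7 and Hoxb8 had 8.73, 8.54 and 8.53 in the mutants and 7.99, 8.14 and 8.91 in the controls, and Hoxb7's own probe set was below background. Of the probe sets shared by Hoxd3 and Hoxd4, that with the higher mean had 5.56, 5.33 and 5.18 in the mutants and 5.74, 5.06 and 6.05 in the controls. The groups overlapped for all of these. Control replicate 2 was the lowest control for Hoxd3os1 and for this probe set of Hoxd3 and Hoxd4, but not for Hoxb5os or the probe set of Hoxb7 and Hoxb8.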
